A study of Mus musculus with 12 samples.

Results

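The genes described here are interleukin-10 with both chains of its receptor (Il10, Il10ra, Il10rb), the subunits of the interleukin-12 family (Il12a, Il12b, Il23a, Il27, Ebi3), and interleukin-15 with its private receptor chain (Il15, Il15ra). They were chosen by gene name among the non-control probes of the array, which gave 11 probes for the 10 genes, out of 55681 probes with 36163 different gene names. Il15ra had 2 probes and every other gene had 1. RNA came from RAW264.7 cells, a mouse macrophage-like line. The 4 groups of 3 arrays each were cells given an siRNA against lincRNA-Tnfaip3 and then LPS, cells given a scrambled control siRNA and then LPS, cells given the siRNA against lincRNA-Tnfaip3 without LPS, and cells given the control siRNA without LPS. Cells had the siRNA for 24 h before a 4 h period in which the LPS groups received 1 µg/ml of LPS of E. coli, a bacterial cell wall component sensed through TLR4. All groups thus carried an siRNA, and all were 1 cell line. Whether the 3 arrays of a group stand for separate cultures is not said in the labels. The p-values therefore rest on the spread among these arrays alone, and that spread may be technical.

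Interleukin-10 is made by activated macrophages and acts back on them through Il10ra and the shared chain Il10rb, which signal through JAK1, TYK2 and STAT3 to restrain inflammatory gene expression. The interleukin-12 family are heterodimers built from shared parts. Il12b pairs with Il12a to make IL-12 and with Il23a to make IL-23, and Ebi3 pairs with Il27 to make IL-27. Interleukin-15 is loaded onto Il15ra in the cell that makes it and is presented on that chain to T cells and NK cells.

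The array read each gene through probes of 60 bases. The probes shown are the single-spot probes whose change with LPS passed the test with at least 1 of the siRNAs, since the values below rest on these stretches of the transcripts. Positions are on mm9, per the array design, and letters are as the array design gives them.
Il27, chr7:133736137-133736196, minus strand: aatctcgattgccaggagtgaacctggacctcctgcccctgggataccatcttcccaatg
Il15, chr8:84858403-84858462, minus strand: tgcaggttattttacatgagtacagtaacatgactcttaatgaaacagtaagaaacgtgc
Il15ra, second probe, chr2:11654809-11654868, plus strand: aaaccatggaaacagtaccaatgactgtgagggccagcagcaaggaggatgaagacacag
The brighter Il15ra probe lies on the same strand at chr2:11655416-11655475, with 547 bases between the probes. The array design lists 2 RefSeq transcripts for the second probe and 1 for the brighter one, which is described as transcript variant 2. The brighter probe holds 8 TG units in a row, against at most 2 in any other probe of these genes. The Il10 probe was printed in 10 spots per array (chr1:132920943-132921002, plus strand).

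Of the 10 genes, 7 were measured and 3 were not. Il10, Il10ra, Il10rb, Il27, Ebi3 and both Il15ra probes were well above background on 12 of 12 arrays, by the flag of the Agilent software. Il15 was well above background on 6 of 12 arrays, which were the 6 LPS arrays. It therefore passed the filter only through the groups in which it was high. Il23a was well above background on 4 of 12 arrays, all with LPS, and Il12a and Il12b on 0 of 12. The filter asked for all 3 arrays of at least 1 group, and 33151 of 55681 probes passed it (59.5%). One probe per gene, the one with the highest mean, left 23909 features for the test.

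Values are log2 intensities minus the 75th percentile of their array, so 0 marks that percentile and a difference of 1 is a doubling. Levels of different genes are not compared, since probes differ. Between 27196 and 36389 probes were well above background per array, with the lowest counts, 27196 and 29450, on control-siRNA arrays 1 and 2 without LPS. These 2 arrays made up slide 1. Slide 3 held lincRNA-siRNA LPS arrays 2 and 3, and the other 8 arrays shared slide 2. Each result was therefore also fitted with slide as a block, in which case its estimate rests on slide 2, the one slide with all 4 groups. No probe (0) was named for lincRNA-Tnfaip3, so the knockdown was not checked here. The number of arrays limits the precision. Of 10 macrophage markers, 9 were well above background on 12 arrays (Csf1r, Cd68, Cd14 and Adgre1 among them) and Mertk on 1. Cd3g, Ms4a1, Klrb1c, Pdgfra, Epcam and Cdh1, markers of T cells, B cells, NK cells, fibroblasts and epithelial cells, were at 0 of 12 arrays. Other markers of some of these types were not absent, since Cd3e, Cd4, Lck, Cd79a, Cd79b and Nkg7 were well above background on 12 arrays, the fibroblast marker Col1a2 on 11 and Col1a1 on 3.

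**Figure D1:**
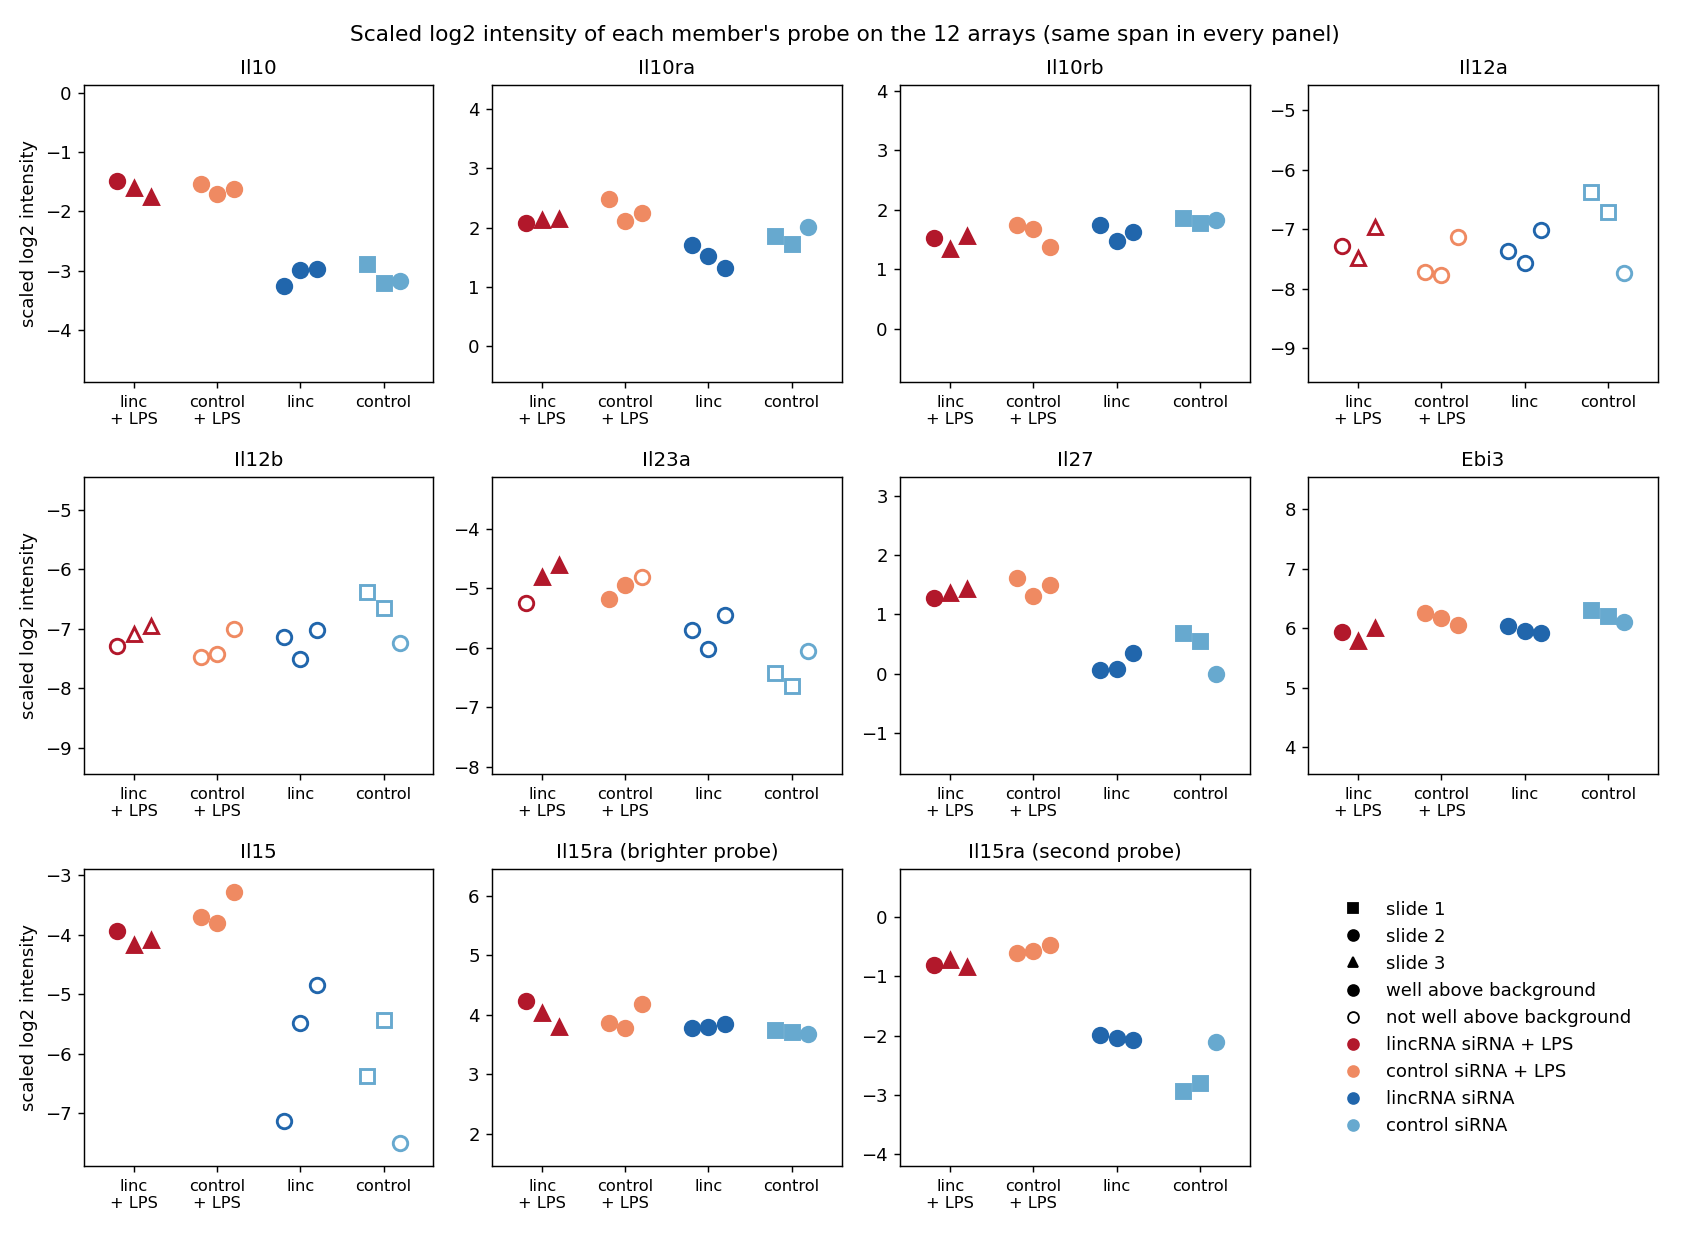
Scaled log2 intensity of each probe (y axis, log2 units relative to the 75th percentile of the array, same span in every panel) on the 12 arrays, by group along the x axis. Points are single arrays, their shape gives the slide, and open points were not well above background. Il10, Il10ra, Il27, Il15, Il23a and the second Il15ra probe have all 6 LPS arrays above all 6 arrays without LPS, and Il12a and Il12b are open throughout.

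The first comparison was of LPS with no LPS, within lincRNA-siRNA cells and within control-siRNA cells. Il10, the macrophage's own restraining cytokine, rose 2.74-fold with the lincRNA siRNA and 2.75-fold with the control siRNA. Il27, the p28 subunit of IL-27, rose 2.28-fold with the lincRNA siRNA and 2.09-fold with the control siRNA. Il15 was well above background with LPS only, and 1 of the 2 Il15ra probes rose with either siRNA. Neither Il10 receptor chain passed the test, and Ebi3, the partner of Il27, did not either. In lincRNA-siRNA cells 2 of 7 measured members passed at an adjusted p of 0.05 and were higher (Il10, Il27), where 1.82% of all features passed in either direction and 1.50% were higher. In control-siRNA cells 3 of 7 passed and were higher (Il10, Il27, Il15), where 5.09% of all features passed and 3.21% were higher. Il15 entered the test only through its LPS arrays, so its call is not read against these shares. The members were also chosen with earlier results of these data known, so their counts are no test against the shares. The median log2 change was 0.60 over the 7 members and -0.0071 over all features in lincRNA-siRNA cells. In control-siRNA cells it was 0.41 over the 7 members and 0.056 over all features. The medians over the 7 members include Il15, so they are not read against those of all features either. In RNA from whole cultures, fewer cells of a kind and less RNA per cell cannot be told apart.

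Il10 stood at -1.49, -1.60 and -1.75 in lincRNA-siRNA cells with LPS and at -3.25, -2.99 and -2.97 without LPS. In control-siRNA cells it stood at -1.54, -1.71 and -1.62 with LPS and at -2.885, -3.20 and -3.16 without. All 6 LPS arrays lay above all 6 others, and the siRNA groups overlapped within each state. The log2 change was 1.45 ± 0.13 (SE) in lincRNA-siRNA cells (adjusted p = 0.000344, limma) and 1.46 ± 0.13 in control-siRNA cells (adjusted p = 0.000175). With slide as a block it was 1.58 in lincRNA-siRNA cells (adjusted p = 0.0142) and 1.54 in control-siRNA cells (adjusted p = 0.0117). The 10 spots of the probe allow a look at the technical spread inside an array. Retained spots ran from 83.1 to 163 in intensity over the arrays of the lincRNA siRNA with LPS and from 98.1 to 179 over those of the control siRNA with LPS. Without LPS they ran from 28.6 to 72.5 with the lincRNA siRNA and from 28.4 to 64.9 with the control siRNA, so that no retained spot of an LPS array was as dim as any of an array without LPS.

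**Figure D2:**
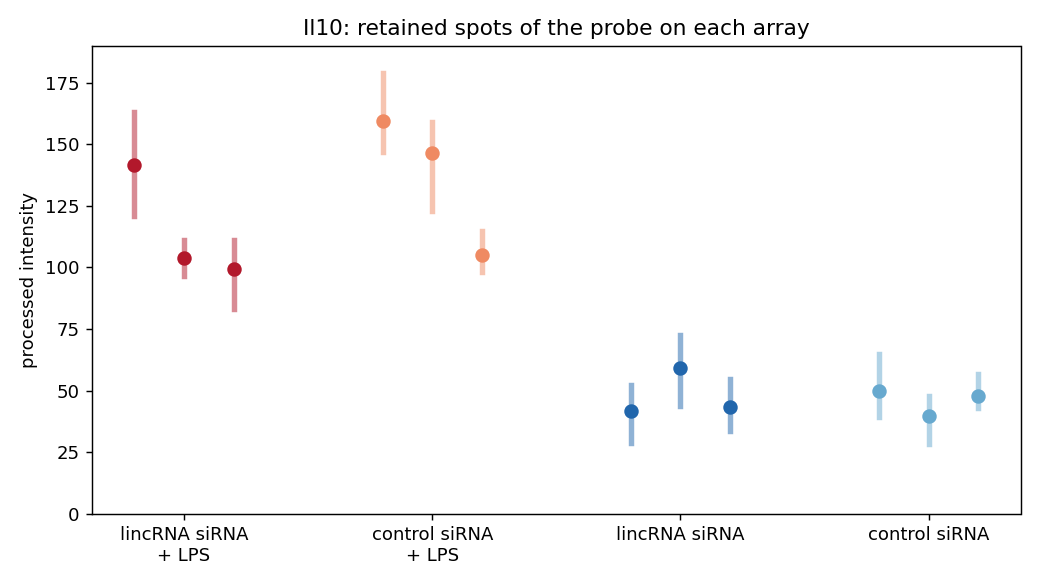
Processed intensity of the Il10 probe (y axis, linear) on each of the 12 arrays, by group along the x axis. Points are the array's value over its retained spots and bars span the lowest to the highest retained spot. The lowest bar with LPS starts at 83.1 and the highest without LPS ends at 72.5.

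Il10ra, the ligand-binding chain, stood at 2.085, 2.12 and 2.15 in lincRNA-siRNA cells with LPS and at 1.71, 1.52 and 1.33 without. Control-siRNA cells gave 2.475, 2.11 and 2.245 with LPS and 1.86, 1.73 and 2.01 without. The LPS arrays lay above the others with either siRNA. The log2 change was 0.60 ± 0.13 (SE) in lincRNA-siRNA cells (adjusted p = 0.0612) and 0.41 ± 0.13 in control-siRNA cells (adjusted p = 0.112), so neither passed. The change in lincRNA-siRNA cells passed under 4 alternatives given in the closing section. With slide as a block it was 0.57 in lincRNA-siRNA cells (adjusted p = 0.531, limma) and 0.27 in control-siRNA cells (adjusted p = 0.861). Il10rb, which also serves the receptors of IL-22 and the lambda interferons, ranged from 1.335 to 1.87 over the 12 arrays. Its log2 change was -0.14 in lincRNA-siRNA cells (95% interval -0.42 to 0.14, adjusted p = 0.818) and -0.23 in control-siRNA cells (-0.51 to 0.047, adjusted p = 0.277).

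The IL-12 family split into measured and unmeasured subunits. Il12a, the p35 subunit, gave intensities between 1.76 and 4.41 on the 12 arrays, none well above background. Il12b, the p40 subunit shared by IL-12 and IL-23, gave array values between 2.31 and 4.40 over 8 to 10 retained spots, and its brightest retained spot read 7.29. Both are bounds only, at or below what the arrays could measure, so no level or change is given for them. The lowest signal called well above background on an array was 7.52 to 9.30 with the lincRNA siRNA and LPS, 7.65 to 10.2 with the control siRNA and LPS, 8.37 to 13.2 with the lincRNA siRNA alone, and 8.09 to 21.1 with the control siRNA alone.

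Il23a, the p19 subunit of IL-23, sat at the edge of detection. Its intensity was 10.5, 11.2 and 13.7 in lincRNA-siRNA cells with LPS, well above background on arrays 2 and 3, and 7.63, 7.27 and 7.78 without LPS. In control-siRNA cells it was 12.8, 15.7 and 11.4 with LPS, well above background on arrays 1 and 2, and 4.30, 3.63 and 6.46 without LPS. Every LPS array was brighter than every array without LPS, and no group had all 3 arrays well above background. No fold is given for either siRNA, because neither LPS group was well above background on all 3 arrays. With the control siRNA the mean of the lowest signals called well above background on the arrays without LPS was also above the LPS level.

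Il27 stood at 1.28, 1.35 and 1.43 in lincRNA-siRNA cells with LPS and at 0.061, 0.081 and 0.35 without. Control-siRNA cells gave 1.62, 1.32 and 1.49 with LPS and 0.69, 0.55 and 0.0014 without. All 6 LPS arrays were above all 6 others. Among control-siRNA arrays without LPS the 2 higher values were those of slide 1, and the third lay below the lincRNA-siRNA arrays. The log2 change was 1.19 ± 0.18 (SE) in lincRNA-siRNA cells (adjusted p = 0.00685) and 1.06 ± 0.18 in control-siRNA cells (adjusted p = 0.00755). With slide as a block it was 1.11 in lincRNA-siRNA cells (adjusted p = 0.0435) and 1.47 in control-siRNA cells (adjusted p = 0.0117), which turned the order of the siRNAs round.

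Ebi3, which joins Il27 in IL-27, did not pass the test. It stood at 5.94, 5.78 and 5.998 in lincRNA-siRNA cells with LPS and at 6.03, 5.96 and 5.93 without. Control-siRNA cells gave 6.26, 6.18 and 6.06 with LPS and 6.30, 6.205 and 6.11 without. The log2 change with LPS was -0.064 in lincRNA-siRNA cells (95% interval -0.29 to 0.16, adjusted p = 0.918) and -0.040 in control-siRNA cells (-0.26 to 0.18, adjusted p = 0.837). Both intervals end below where those of Il27 begin, at 0.80 in lincRNA-siRNA cells and 0.67 in control-siRNA cells.

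Il15 was seen with LPS only. It stood at -3.94, -4.17 and -4.09 in lincRNA-siRNA cells with LPS and at -7.13, -5.48 and -4.85 without. In control-siRNA cells it stood at -3.705, -3.80 and -3.28 with LPS and at -6.37, -5.44 and -7.51 without. The 6 LPS arrays lay above the other 6, which were not well above background and were scattered with SDs of 1.18 with the lincRNA siRNA and 1.04 with the control siRNA. With LPS the SDs were 0.119 with the lincRNA siRNA and 0.273 with the control siRNA. The LPS level was at least 2.27-fold higher with the lincRNA siRNA and at least 2.255-fold higher with the control siRNA, counted against the higher of the array's lowest measurable signal and the probe's own. The fit gave adjusted p = 0.289 in lincRNA-siRNA cells and adjusted p = 0.0252 in control-siRNA cells. The call in control-siRNA cells was lost with slide as a block (adjusted p = 0.0821), and also without control-siRNA array 1 (0.0823) or without any 1 of the control-siRNA LPS arrays (0.0505 to 0.109).

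The 2 probes of Il15ra disagreed. The second probe stood at -0.81, -0.72 and -0.85 in lincRNA-siRNA cells with LPS and at -1.99, -2.03 and -2.07 without. Control-siRNA cells gave -0.61, -0.58 and -0.48 with LPS and -2.93, -2.80 and -2.115 without. With LPS it was higher on every array. Fitted with every kept probe on its own (33151 probes, of which 1.34% were called higher in lincRNA-siRNA cells and 2.88% in control-siRNA cells), its log2 change was 1.24 ± 0.18 (SE) in lincRNA-siRNA cells (adjusted p = 0.00764) and 2.06 ± 0.18 in control-siRNA cells (adjusted p = 0.000218). With slide as a block it was 1.22 in lincRNA-siRNA cells (adjusted p = 0.0106) and 1.56 in control-siRNA cells (adjusted p = 0.00443). The brighter probe, which stands for the gene in the main test, ranged from 3.80 to 4.22 in lincRNA-siRNA cells with LPS and from 3.775 to 3.85 without. It ranged from 3.77 to 4.175 in control-siRNA cells with LPS and from 3.67 to 3.74 without. Its log2 change was 0.21 in lincRNA-siRNA cells (95% interval -0.088 to 0.51, adjusted p = 0.704) and 0.23 in control-siRNA cells (-0.074 to 0.53, adjusted p = 0.320). The interval of the second probe in either siRNA lies above that of the brighter probe, and which of them follows the gene's transcripts was not tested.

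**Figure D3:**
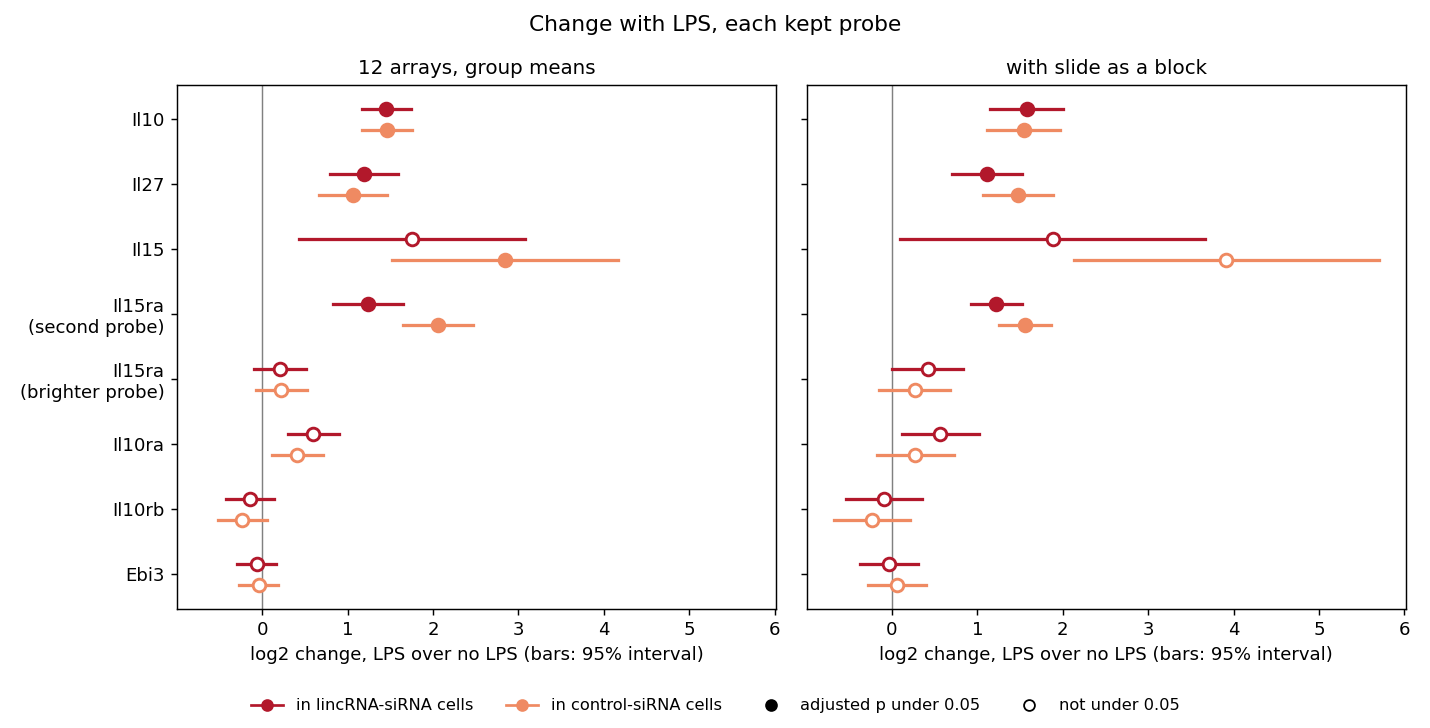
Log2 change with LPS over no LPS (x axis) for each probe that passed the filter (y axis), with 95% intervals, in lincRNA-siRNA and control-siRNA cells. The left panel is the fit of group means on 12 arrays and the right panel adds slide as a block. Filled points had an adjusted p under 0.05 over all kept probes. Il10, Il27 and the second Il15ra probe are filled in both panels, and Il15 only in control-siRNA cells on the left. The points of Il15 are set against arrays not well above background and are no measured size.

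Counted by arrays that did not overlap, 4 of 7 members were higher with LPS in lincRNA-siRNA cells (Il10, Il10ra, Il27, Il15) and 0 lower, against 8.14% and 7.16% of all features. In control-siRNA cells 5 of 7 were higher (the same 4 and Il15ra) and 1 lower (Il10rb), against 14.6% and 15.4%. Il15 had to differ to be in this count, for the reason given above. Summed macrophage markers (9 of 10 tested, 0 passing) separated too, at 540 to 613 times the array's 75th percentile with the lincRNA siRNA and LPS and 473 to 539 with the lincRNA siRNA alone. They came to 447 to 510 with the control siRNA and LPS and 358 to 443 with the control siRNA alone, so that they also separated the siRNAs in both states. Summed dendritic cell markers (4 of 5 tested, 0 passing) also separated with LPS, at 0.502 to 0.564 times the array's 75th percentile with the lincRNA siRNA and LPS and 0.282 to 0.405 with the lincRNA siRNA alone, and at 0.518 to 0.589 with the control siRNA and LPS and 0.319 to 0.482 with the control siRNA alone. Zbtb46, Itgax and Ccr7 were well above background on 12 arrays. Summed T cell markers (4 of 6 tested) lay between 12.7 and 16.6 with the lincRNA siRNA and LPS and between 10.3 and 14.1 with the lincRNA siRNA alone. They lay between 11.5 and 16.4 with the control siRNA and LPS and between 6.44 and 11 with the control siRNA alone, where 1 of the 4, Lck, passed. Their part in the members' changes was not tested.

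The second comparison was of the siRNA against lincRNA-Tnfaip3 with the control siRNA, with and without LPS. No member passed in any of these comparisons, and 0 of 23909 features passed with LPS, without LPS or for the interaction of siRNA and LPS (limma; 0% called in each). At an unadjusted p under 0.05 there were 1124, 4383 and 885 features and 1, 2 and 0 of the 7 members in those 3 comparisons. Averaged over both LPS states 23 features (0.0962%) passed, none of them a member. Without overlap of arrays, 2 of 7 members were lower with LPS (Ebi3, Il15) and 0 higher, against 4.04% and 7.36% of features. Without LPS 3 of 7 were lower (Ebi3, Il10ra, Il10rb) and 1 higher (Il15ra, by its brighter probe), against 9.26% and 12.1%. The summed macrophage markers given above were higher with the lincRNA siRNA in both states. Their median log2 difference was 0.0024 with LPS, against 0.0227 over all features, and 0.228 without LPS, against 0.0676. The part of these markers in the members' differences was not tested.

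Ebi3 was the one member lower without overlap in both states. Its arrays ran from 5.78 to 5.998 with the lincRNA siRNA and LPS, against 6.06 to 6.26 with the control siRNA and LPS, and from 5.93 to 6.03 with the lincRNA siRNA alone, against 6.11 to 6.30 with the control siRNA alone. The log2 difference was -0.26 ± 0.10 (SE, adjusted p = 0.9753) with LPS and -0.23 ± 0.10 (adjusted p = 0.263) without, and -0.25 averaged over both (adjusted p = 0.186), so it did not pass. With slide as a block it was -0.22 with LPS and -0.14 without.

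For Il10 the difference between siRNAs was 0.0067 with LPS (95% interval -0.28 to 0.29) and 0.014 without (-0.27 to 0.30). For Il27 it was -0.12 with LPS (-0.51 to 0.27) and -0.25 without (-0.64 to 0.15), where it turned to 0.16 with slide as a block. For Il10ra it was -0.16 with LPS (-0.46 to 0.14) and -0.35 without (-0.64 to -0.050, adjusted p = 0.238). Il10rb differed by -0.12 with LPS (-0.40 to 0.16) and -0.21 without (-0.49 to 0.065). The interval for Il15 was far wider, at -1.80 to 0.85 around -0.47 with LPS, where all 3 lincRNA-siRNA arrays were lower, and without LPS the probe was not well above background in either group.

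The second Il15ra probe gave values that differed with the slide among control-siRNA arrays. It was 0.58 ± 0.18 (SE, adjusted p = 0.221) higher with the lincRNA siRNA than with the control siRNA in the absence of LPS, and its 3 lincRNA-siRNA arrays, from -2.07 to -1.99, lay above the control arrays, from -2.93 to -2.115. The 2 control arrays of slide 1 gave the lowest values, and the control array on slide 2 lay 0.082 below the mean of the lincRNA-siRNA arrays, which shared its slide. With slide as a block the difference was 0.082 (95% interval -0.22 to 0.38). With LPS it was -0.24 (-0.65 to 0.17), with no overlap between lincRNA-siRNA and control-siRNA arrays. The interaction was -0.82 ± 0.26 (SE, adjusted p = 0.899) and -0.34 with slide as a block. Without control-siRNA array 3, which left slide 1 alone for that group, the difference without LPS was 0.83 (adjusted p = 0.0025) and the interaction -1.07 (adjusted p = 0.0131).

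**Figure D4:**
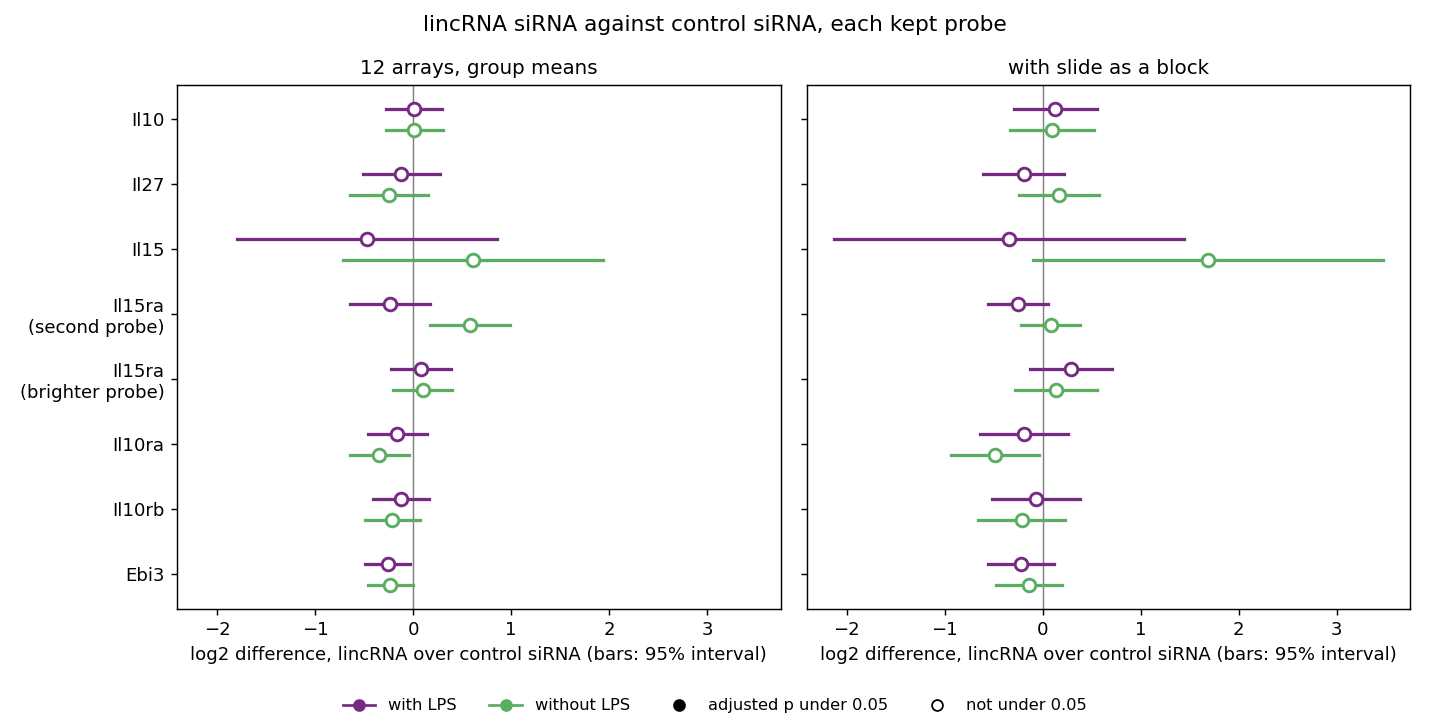
Log2 difference of the lincRNA siRNA over the control siRNA (x axis) for each probe that passed the filter (y axis), with 95% intervals, with and without LPS. The left panel is the fit of group means on 12 arrays and the right panel adds slide as a block. No point is filled, that is, none had an adjusted p under 0.05, and the second Il15ra probe without LPS moves to 0.082 on the right.

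Genes around these cytokines were read from 4 lists. The lists were chosen with earlier results of these data known. Their counts and medians are therefore no test against those of all features, which are given for scale. The JAK-STAT list held genes that carry the signals of these receptors and genes that restrain them. Of these, 7 of 18 tested rose with LPS and 0 fell in both lincRNA-siRNA and control-siRNA cells. Over all features 1.50% were called higher in lincRNA-siRNA cells (median change -0.0071) and 3.21% in control-siRNA cells (median change 0.056). Cish, a feedback inhibitor of cytokine receptors, rose by 6.05 log2 units with the lincRNA siRNA and 6.67 with the control siRNA, though without LPS it was well above background on 2 of 3 lincRNA-siRNA arrays and 1 of 3 control-siRNA arrays. Socs1, which blocks JAK kinases, rose by 3.35 with the lincRNA siRNA and 3.49 with the control siRNA. Socs3, the STAT3 target that restrains gp130 receptors, rose by 1.74 with the lincRNA siRNA and 1.575 with the control siRNA. Stat2, which carries type I interferon signals, rose by 1.93 with the lincRNA siRNA and 2.23 with the control siRNA. The list's median change was 0.212 with the lincRNA siRNA and 0.0826 with the control siRNA.

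Of genes that macrophages are known to raise in response to IL-10, 5 of 17 tested rose with LPS in lincRNA-siRNA cells and 6 in control-siRNA cells, with 0 lower, against 1.50% of all features called higher in lincRNA-siRNA cells and 3.21% in control-siRNA cells. Their median change was 0.506 in lincRNA-siRNA cells and 0.464 in control-siRNA cells. Tnfrsf1b, a TNF receptor, rose by 2.12 log2 units with the lincRNA siRNA and 2.00 with the control siRNA. Zfp36, which speeds decay of cytokine mRNAs, rose by 0.84 with the lincRNA siRNA and 0.98 with the control siRNA. Etv3, a repressor, rose by 0.76 with the lincRNA siRNA and 0.81 with the control siRNA. Il1rn, the IL-1 receptor antagonist, gave 1.19 in lincRNA-siRNA cells (adjusted p = 0.300) and rose by 2.47 in control-siRNA cells (adjusted p = 0.0078), where 1 of 3 arrays without LPS was well above background. A difference between siRNAs was not shown for any of them, since 0 features passed for the interaction.

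Of transcription factors that act on these cytokine genes, 5 of 31 tested rose in lincRNA-siRNA cells, with 0 lower, and 11 rose in control-siRNA cells, with 1 lower. The share of all features called higher also differed, at 1.50% in lincRNA-siRNA cells and 3.21% in control-siRNA cells, so the counts are not compared between siRNAs. Irf1, which acts on Il12a, Il15 and Il27, rose by 3.44 log2 units with the lincRNA siRNA and 3.32 with the control siRNA, and its other kept probe by 1.32 with the lincRNA siRNA and 1.57 with the control siRNA. Atf3, a stress-induced repressor, rose by 1.67 with the lincRNA siRNA and 1.94 with the control siRNA. Nfkbiz, a nuclear IkB protein needed for Il12b in mouse macrophages, rose by 1.25 with the lincRNA siRNA and 1.04 with the control siRNA. Junb, an AP-1 subunit, rose by 1.12 with the lincRNA siRNA and 0.79 with the control siRNA. Irf7 (3.07) and Rel (2.51, with 1 of 3 arrays without LPS well above background) passed in control-siRNA cells. In lincRNA-siRNA cells Irf7 gave 1.65 (adjusted p = 0.479, limma) and Rel 0.30 (adjusted p = 0.923). The one lower was Fos, another AP-1 subunit, at -0.80 in control-siRNA cells and -0.61 in lincRNA-siRNA cells (adjusted p = 0.122, not passing). Medians were 0.406 with the lincRNA siRNA and 0.442 with the control siRNA. Of receptor chains and related cytokines only Il18bp, the secreted trap for IL-18, passed of 16 tested, where 1.82% of all features passed in lincRNA-siRNA cells and 5.09% in control-siRNA cells. It rose by 0.64 in lincRNA-siRNA cells and 1.02 in control-siRNA cells, with list medians of 0.0999 in lincRNA-siRNA cells and 0.333 in control-siRNA cells. No gene of the 4 lists passed in any comparison of the siRNAs.

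The profiles nearest to each member over the 12 arrays were found by the root mean square difference of gene-centred log2 values. For Il10 they were Sp140 (0.126) and Akna (0.139), and for Il27 Slc15a3 (0.122) and Gadd45b (0.165). For Il15 the nearest was Helz2 (0.418), though Il15 was well above background on only 6 of 12 arrays. For the second Il15ra probe the nearest were Adamts4 (0.227) and Olfr433 (0.242), and for Il10ra Rassf4 (0.111) and Ercc1 (0.115). The distances for Il10 are small beside its own range of 1.76 log2 units, and those for Ebi3 (Pinx1, 0.0595, and Spryd4, 0.067), Il10rb (Hsd17b4, 0.0536, and Hcfc2, 0.0679) and the brighter Il15ra probe (Setd4, 0.087, and Ppp2r5a, 0.0934) belong to probes whose own range was 0.519 (Ebi3), 0.534 (Il10rb) and 0.555 (Il15ra) log2 units.

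Promoters were read from RefSeq (GRCm38.p6), each from 250 bases before to 50 after a start site. The table held promoters for 4 of the 10 genes (Ebi3, Il12a, Il12b, Il15ra), 6 in all. They were searched on both strands for the NF-kB motif, the interferon response motif ISRE, AP-1 (TGANTCA), CRE (TGACGTCA) and GAS (TTCNNNGAA), which 8.46%, 3.44%, 7.81%, 1.79% and 8.3% of 32851 promoters in the table hold. Ebi3 matched NF-kB at 2 places, starting at positions -44 and 15 from the start site, and 1 of 2 Il15ra promoters matched AP-1 at position -30. The 2 promoters are shown with these matches in capitals, Ebi3 because its signal did not pass with LPS and Il15ra because its probes disagreed.
Ebi3, chr17:55952373-55952672, plus strand: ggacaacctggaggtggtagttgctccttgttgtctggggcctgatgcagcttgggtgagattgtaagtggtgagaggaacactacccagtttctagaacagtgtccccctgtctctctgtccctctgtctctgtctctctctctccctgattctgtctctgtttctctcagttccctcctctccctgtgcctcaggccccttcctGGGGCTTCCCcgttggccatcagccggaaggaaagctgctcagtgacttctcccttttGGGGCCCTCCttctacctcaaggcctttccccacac
Il15ra, chr2:11705462-11705761, plus strand: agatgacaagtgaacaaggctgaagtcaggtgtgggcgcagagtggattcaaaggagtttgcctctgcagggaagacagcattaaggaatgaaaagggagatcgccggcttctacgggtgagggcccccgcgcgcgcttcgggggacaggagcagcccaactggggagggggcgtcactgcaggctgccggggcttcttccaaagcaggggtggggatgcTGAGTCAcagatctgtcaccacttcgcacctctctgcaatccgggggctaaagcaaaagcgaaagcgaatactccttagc
The promoters of Il12a and Il12b, and the other one of Il15ra, held none of the 5 motifs in this window.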

How the data were processed

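Total RNA was labelled with Cy3 and hybridised to 1-colour Agilent arrays, 12 in 4 groups of 3. Per the file headers, the array images were read with Agilent Feature Extraction 10.7.1.1. The deposited values are processed intensities per spot, background-corrected, with mm9 positions. The authors' deposited value table holds log2 values whose median is 4.76 in every column, with their normalization not given in the sources used here, so it served only as an alternative.

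Here control and outlier-flagged spots were left out, log2 processed intensity was scaled to each array's 75th percentile, and spots of a probe were averaged. A probe counted as well above background where most of its retained spots did, and was kept if that held on all 3 arrays of a group. The probe with the highest mean stood for a gene, and 6109 features had more than 1 kept probe. limma 3.58.1 (lmFit, contrasts.fit, eBayes; R 4.3.3) fitted group means to all 12 arrays, with Benjamini-Hochberg adjustment over 23909 features and a threshold of 0.05. The scripts were tested on simulated data, with changes planted for LPS in control-siRNA cells. Of 100 planted 2-fold changes 51 passed, and of 100 planted 4-fold changes 75 passed. A result that did not pass therefore does not show that there was no change. Alternatives were normexp (offset 50), quantile scaling, the authors' table, no filter and a stricter one, other probe rules, slide as a block or slide 2 alone, a replicate block, and each array left out. The members and lists were chosen with earlier results of these data known. Named genes of a list are up to 4 with the largest change among those passing per LPS comparison, and some genes that the rules name are not reported here. Figures used matplotlib 3.10.9 (Python 3.11.15).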

Additional observations from a re-analysis of the deposited data

How the results depend on the processing

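Of 1026 alternative values for the members, 1005 kept their direction where called and their side of the threshold, 12 lost a call, 9 gained one and 0 reversed a called direction. In 61 of them the sign changed while neither value passed, which was not counted as a reversal. Most of the 1026 values belong to comparisons that were not called and had no call to lose. Il12a, Il12b and Il23a are not in this count. With no filter Il23a passed with LPS in control-siRNA cells (adjusted p = 0.0129, limma), against arrays not well above background. In lincRNA-siRNA cells it did not pass (adjusted p = 0.233). With either siRNA the calls of Il10 and Il27 were each kept in 21 of 22 alternatives. Il15 kept its call in 14 of 21. The second Il15ra probe kept its call in 17 of 18 with the lincRNA siRNA and 18 of 18 with the control siRNA. On slide 2 alone, with 8 arrays, 0 members passed with LPS in either siRNA, against 2 with the lincRNA siRNA and 3 with the control siRNA. With the lincRNA siRNA Il10 was 1.58 there (adjusted p = 0.0512), Il27 1.11 (0.1504) and the second Il15ra probe 1.22 (0.059). With the control siRNA Il10 was 1.54 (0.0523), Il27 1.47 (0.0738) and the second Il15ra probe 1.56 (0.0381), and Il15 lost its call (0.231). The cause of these changes was not tested, though fewer arrays entered. Leaving out 1 array left 2 to 2 members with the lincRNA siRNA and 2 to 3 with the control siRNA, and 0 to 0 in each siRNA comparison. Normexp gave Il10 0.84 with the lincRNA siRNA and 0.77 with the control siRNA, still called, and Il15 lost its call with the control siRNA (adjusted p = 0.211). Il10ra with the lincRNA siRNA passed under normexp (0.60, adjusted p = 0.0247), quantile scaling (0.0404), the authors' table (0.0406) and the stricter filter (0.0381). It did not pass with slide as a block (0.531) or on slide 2 alone (0.745). The mean of both Il15ra probes passed, at 0.73 with the lincRNA siRNA (0.0162) and 1.14 with the control siRNA (0.000649). Features called with LPS ranged from 46 to 539 with the lincRNA siRNA (436 in the main test) and from 51 to 3934 with the control siRNA (1216). The highest, 3934, came without control-siRNA array 3, when only slide 1 stood for that group. The same omission gave 2546 features for the siRNAs without LPS, 1643 averaged and 353 for the interaction, and calls for the second Il15ra probe of 0.83 without LPS (adjusted p = 0.0025), 0.30 averaged (0.0382) and -1.07 for the interaction (0.0131). Without lincRNA-siRNA array 1 the counts were 131 without LPS and 210 averaged. Features with LPS and the lincRNA siRNA came to 288 and 244 without its LPS arrays 1 and 2, and those with the control siRNA to between 513 and 576 without control-siRNA arrays 1 or 2 or its LPS arrays 2 or 3. Slide as a block gave 157 features with the lincRNA siRNA and 227 with the control siRNA, and no filter gave 302 with the lincRNA siRNA and 719 with the control siRNA. Averaged siRNA differences gave 0 to 1643 features (23 in the main test). The probe-by-probe alternatives for Il15ra were chosen after seeing the data. Whether replicate numbers pair the arrays was not settled. Same-numbered deviations correlated from -0.299 to 0.469 and 8 of 18 exceeded 0.1. They were taken from means of 3 arrays, which in some groups lay on different slides, so they cannot exclude pairing. With the replicate block 2 members passed with LPS and the lincRNA siRNA, among 370 features, 3 with LPS and the control siRNA, among 1524, and 0 in each siRNA comparison.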

Other observations

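On control-siRNA array 1 without LPS, 1 of the 10 Il12b spots read 570 in intensity, was flagged as an outlier by the Agilent software and was left out. The other 9 spots on that array read 4.32 to 4.47.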
